A study of Arabidopsis thaliana with 4 samples.

Results

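The type-A response regulators of Arabidopsis thaliana are a family of small cytokinin signalling proteins, and all 10 members (ARR3 to ARR9 and ARR15 to ARR17) were chosen by their locus identifiers. All 10 were found among the 27416 gene models of the data. The data compare Col-0 wild-type (WT) seedlings kept under red light (60 µmol m-2 s-1) with WT seedlings kept in darkness, 2 samples of each. All seeds had 4 days at 4 °C on half-strength MS medium with 1% sucrose and 12 h of white light, and then 4 days in either condition, 4.5 days of growth in all. Seedling poly(A) RNA was sequenced, and the data hold 1 column of reads and 1 of RPKM for each condition. RPKM are reads divided by the length of the gene model and by the total reads, so that genes can be compared per length. The sources used here do not say how the 2 samples of a condition entered its column. Values are therefore given without a replicate error, differences have no replicate check, and no p-value can be had. Brackets hold exact 95% intervals, which reflect the counting of reads alone.

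Cytokinin is perceived by histidine kinase receptors (AHK), which pass a phosphate through shuttle proteins (AHP) to response regulators (ARR). Type-B ARRs are transcription factors that switch on cytokinin-responsive genes, among them the type-A ARRs. Type-A ARRs carry the phosphate-receiving domain without a DNA-binding domain and damp the signal, so their transcripts are widely used as a readout of cytokinin response. ARR4 also has a place in light biology, since it is known to bind the red-light photoreceptor phytochrome B and to stabilise its active form.

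The family had more transcript in red light in total, but its members differed widely. Together the 10 genes had 11054 of 33521717 reads in red light and 8713 of 41106535 reads in darkness, a ratio of 1.56 per total reads (1.51 to 1.60). The ratio of RPKM values, red light over darkness, was above 1 for 7 members and below 1 for ARR8 and ARR3, and ARR17 had too few reads for a ratio. A gene was called changed when RPKM + 1 differed at least 2-fold and the higher condition had at least 10 RPKM. Of the members, 6 reached 10 RPKM and 4 did not, so that only those 6 could be called. None of the 6 was called in either direction. Of the 12625 genes that reached 10 RPKM, 8.69% were called higher and 5.35% lower, and 0 of 6 is close to these shares. The largest ratios belonged to ARR15 and ARR16, which stayed under 10 RPKM in both conditions, and the abundant members ARR7, ARR4 and ARR6 lay just under the 2-fold limit. In whole seedlings, a change in the number of cells that express a gene and a change in its RNA per cell cannot be told apart.

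**Figure D1:**
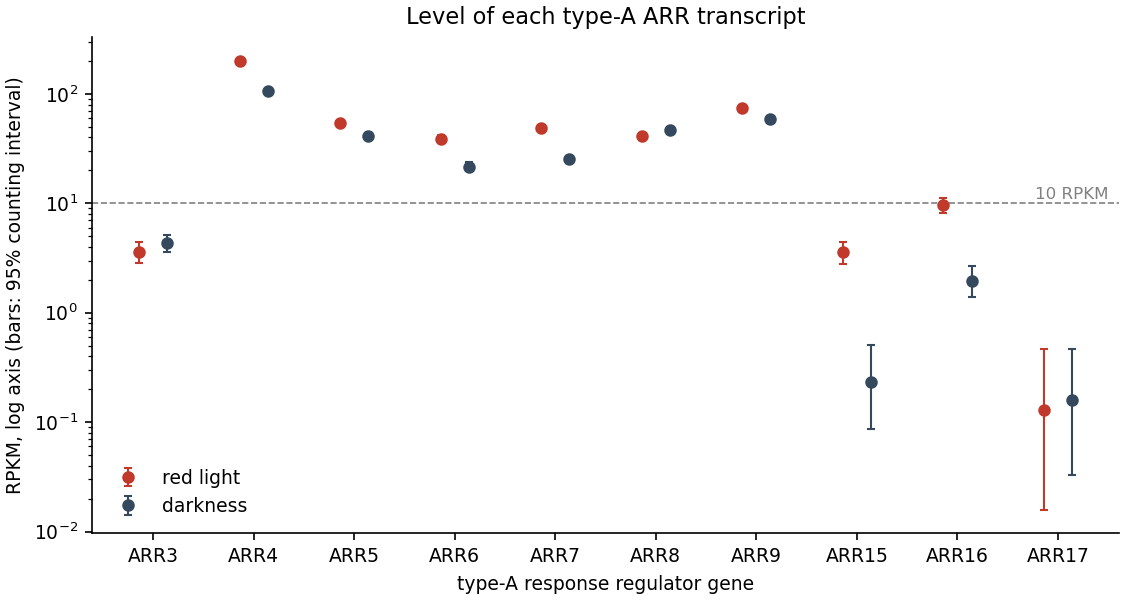
RPKM (log axis) of each type-A ARR gene in red light (red) and in darkness (dark blue), 1 deposited column per condition, with bars for the 95% counting interval. ARR4 was the most abundant member in both conditions, at 202 RPKM in red light and 107 RPKM in darkness, and ARR17 rested on 2 reads in red light and 3 in darkness.

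ARR15 and ARR16 were weakly expressed and had the largest ratios. ARR15 (AT1G74890), which with ARR7 is known as a target of the stem cell factor WUSCHEL in the shoot meristem, had 74 reads in red light and 6 reads in darkness, or 3.55 RPKM in red light and 0.235 RPKM in darkness. Its ratio was 15.1, with a wide interval (6.63 to 42.5) because of the 6 reads in darkness. ARR16 (AT2G40670), known from young leaves and the stomatal lineage, had 160 reads in red light and 40 reads in darkness, or 9.58 RPKM in red light and 1.95 RPKM in darkness, a ratio of 4.91 (3.45 to 7.12). Both intervals lay wholly above 2. With the minimum lowered to 5 RPKM, ARR16 was called higher, as were 8.24% of the genes tested then. With a minimum of 1 RPKM, both genes were called higher, against 7.45% of genes. Of the 6978 genes whose higher value lay between 1 and 10 RPKM, 1.06% had a larger log2 change of RPKM + 1 than ARR15 and 1.12% a larger one than ARR16. These shares depend in part on level, because the added 1 keeps genes near 1 RPKM from reaching such a change whatever their ratio.

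ARR7, ARR4 and ARR6 had nearly 2-fold ratios on many more reads. ARR7 (AT1G19050), which acts in the shoot meristem and the embryonic root, had 49.1 RPKM (1023 reads) in red light and 25.3 RPKM (645 reads) in darkness, a ratio of 1.94 (1.76 to 2.15). ARR4 (AT1G10470), the partner of phytochrome B, had 202 RPKM (5277 reads) in red light and 107 RPKM (3415 reads) in darkness, a ratio of 1.89 (1.81 to 1.98). ARR6 (AT5G62920), one of the genes that respond to cytokinin within minutes, had 38.9 RPKM (732 reads) in red light and 21.6 RPKM (499 reads) in darkness, a ratio of 1.80 (1.60 to 2.02). The 2-fold limit lay inside the counting interval for ARR7 and ARR6 and just above it for ARR4. With TMM scaling, ARR7 was called higher at a log2 change of 1.00, as were 9.49% of genes, while ARR4 stayed below the limit at 0.98. Among the 12625 genes of at least 10 RPKM, 9.36% had a larger log2 change than ARR7, 9.54% than ARR4 and 10.7% than ARR6.

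ARR5 and ARR9 had small ratios above 1. ARR5 (AT3G48100), whose promoter is a standard reporter of cytokinin response, had 54.1 RPKM (1007 reads) in red light and 41.4 RPKM (945 reads) in darkness, a ratio of 1.31 (1.19 to 1.43). ARR9 (AT3G57040), a member known to respond less to added cytokinin, had 74.7 RPKM (1766 reads) in red light and 59.6 RPKM (1727 reads) in darkness, a ratio of 1.25 (1.17 to 1.34). Both intervals excluded 1 and stayed far from 2.

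ARR8, ARR3 and ARR17 were not higher in red light. ARR8 (AT2G41310), the close relative of ARR9, had 40.9 RPKM (929 reads) in red light and 47.0 RPKM (1309 reads) in darkness, a ratio of 0.870 (0.799 to 0.947). ARR3 (AT1G59940), the close relative of ARR4, had 3.60 RPKM (84 reads) in red light and 4.33 RPKM (124 reads) in darkness, and its ratio of 0.831 had an interval that included 1 (0.622 to 1.10). ARR17 (AT3G56380) had 2 reads in red light and 3 reads in darkness, at or under the floor of 3 reads, so no ratio is given. Over the 10 members, the interval of the ratio lay above 1 for 7 genes and below 1 for 1. Among the 23956 genes with any read, 25.8% lay above 1 and 34.4% below. That background includes many genes with too few reads to exclude 1, and among genes of at least 10 RPKM it was 32.5% above and 49% below, where 5 of the 6 members lay above and 1 below.

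**Figure D2:**
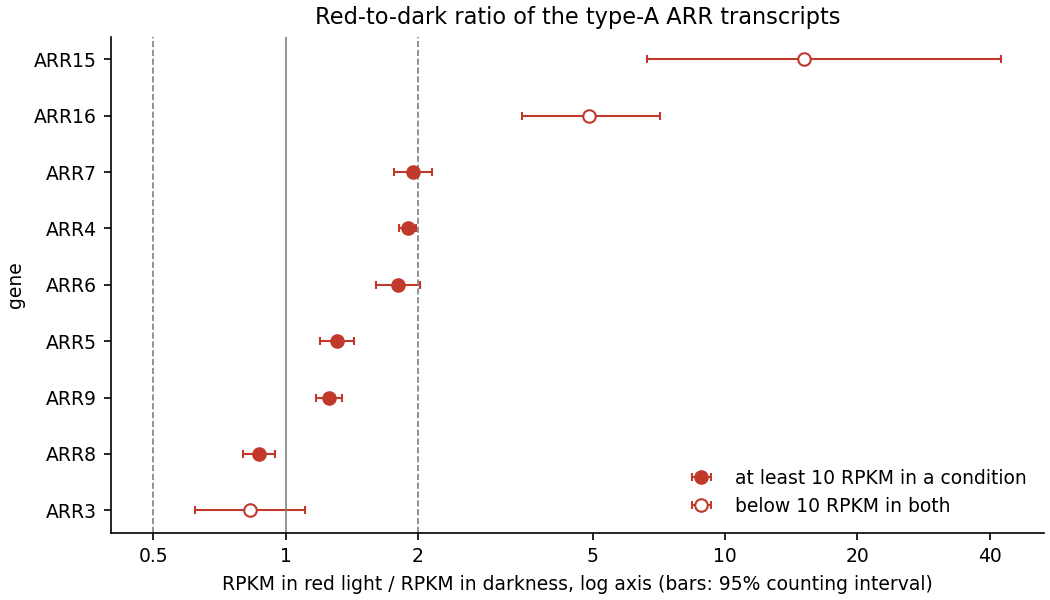
Ratio of RPKM in red light to RPKM in darkness (log axis) for 9 members, with 95% counting intervals, filled where the gene had at least 10 RPKM in a condition and open where it did not. ARR15 and ARR16 lie to the right of the dashed 2-fold line, ARR7, ARR4 and ARR6 on or just left of it, and ARR8 and ARR3 left of 1. ARR17 is left out because both its read numbers were at or under the floor.

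The median log2 change of RPKM + 1 over all 10 members was 0.60, and over the 6 members of at least 10 RPKM it was also 0.60. Over the 12625 genes of at least 10 RPKM it was -0.11, and 41.2% of those genes had a ratio above 1. These medians describe 1 column against 1 column. Scaling by TMM, DESeq2 or upper-quartile factors moved every log2 ratio by 0.07, 0.06 and 0.01, and the direction of the ratio of each of the 9 members that had one stayed as given.

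**Figure D3:**
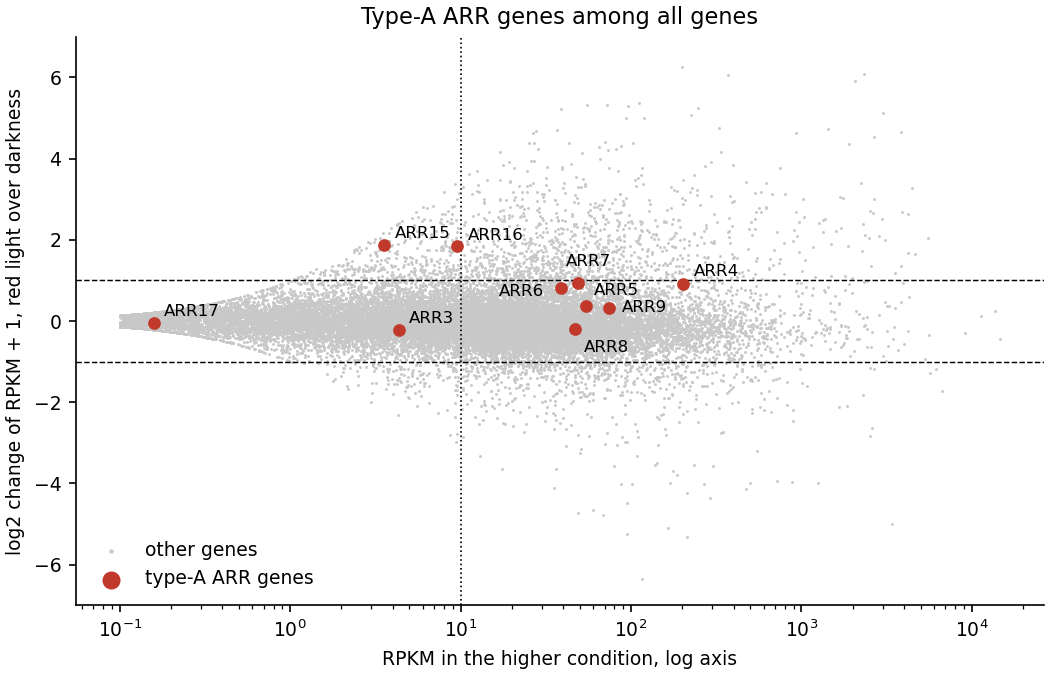
Log2 change of RPKM + 1, red light over darkness, against the RPKM of the higher condition (log axis) for all genes (grey, shown from 0.1 RPKM) and the 10 type-A ARR genes (red). No member lies both right of the dotted line at 10 RPKM and beyond a dashed line at a 2-fold change.

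ARR4 dominated the family, more so in red light. It held 47.7% (46.8% to 48.7%) of the family's reads in red light and 39.2% (38.2% to 40.2%) in darkness, or 42.4% of its summed RPKM in red light and 34.6% in darkness. ARR8 had the opposite pattern, with 8.40% (7.89% to 8.94%) of the reads in red light and 15.0% (14.3% to 15.8%) in darkness. Shares were also lower in red light for ARR9 (16.0%, against 19.8% in darkness), ARR5 (9.11%, against 10.8%) and ARR3 (0.760%, against 1.42%). Without ARR4, the other 9 genes had a summed ratio of 1.34 (1.29 to 1.39).

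By RPKM, the order in red light was ARR4, ARR9, ARR5, ARR7, ARR8, ARR6, ARR16, ARR3, ARR15 and ARR17. Within it, ARR8 and ARR6 did not differ beyond counting error, nor did ARR3 and ARR15. In darkness the order was ARR4, ARR9, ARR8, ARR5, ARR7, ARR6, ARR3, ARR16, ARR15 and ARR17, and there ARR15 and ARR17 did not differ. On this scale ARR8 stood above ARR5 and ARR7 in darkness and below them in red light, and ARR16 stood below ARR3 in darkness and above it in red light. ARR4 stood higher than 96.9% of all genes in red light and 93.4% in darkness, and ARR15 higher than 41.3% in red light and 22.9% in darkness. The deposited lengths are coding lengths. With the full spliced transcript length of the reference, 4 of the 10 genes changed position in each condition, and ARR7, with a shorter transcript than ARR5, stood above that gene in both. On that length ARR8 stood below ARR5 and ARR7 in darkness as well as in red light, so its change of place against those genes depends on the length used. ARR8 then stood above ARR6 in darkness and below it in red light.

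The members form 5 pairs of closest coding sequence, and the members of most pairs had different ratios. Coding identity, counted over the shorter sequence of each pair, was 83.8% for ARR16 and ARR17, 81.0% for ARR8 and ARR9, 80.6% for ARR3 and ARR4, 79.6% for ARR5 and ARR6 and 74.6% for ARR7 and ARR15. The ratio of ARR4 was 2.28 times that of ARR3 (1.71 to 3.06), and the level of ARR4 was 56.1 times that of ARR3 in red light and 24.6 times in darkness, on RPKM. The ratio of ARR15 was 7.77 times that of ARR7 (3.38 to 22.0), although ARR7 was the more abundant in both conditions. Smaller contrasts separated ARR9 from ARR8, at 1.44 (1.29 to 1.61), and ARR6 from ARR5, at 1.38 (1.19 to 1.59). For ARR16 and ARR17 the interval included 1 (0.656 to 73.2), since ARR17 had so few reads. None of these differences has a replicate check.

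The members shared little coding sequence with other genes that could blur their reads. Of the coding words of 31 bases, none of those of ARR5, ARR6, ARR7, ARR15, ARR16 and ARR17 occurred in another gene. The share was 2.40% for ARR3 and 2.13% for ARR4, which shared with each other. It was 3.11% for ARR9 and 9.72% for ARR8, which shared with each other and with AT2G07440, a locus outside the 10 members. No coding base of a member fell within another annotated gene, and for all 10 the coding length of the data equalled that of the RefSeq reference.

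In the RefSeq annotation of TAIR10.1, all 10 genes had 5 coding exons. ARR4, ARR7, ARR3 and ARR15 lay on chromosome 1, all on the minus strand, ARR16 and ARR8 on chromosome 2 on the plus strand, and ARR5, ARR17 and ARR9 on chromosome 3. ARR6 was the only member on chromosome 5. ARR15 spanned chr1:28131447-28133025, ARR16 chr2:16969673-16972113, ARR7 chr1:6577833-6579314, ARR4 chr1:3441988-3444360 and ARR8 chr2:17221840-17224880.

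The 250 bases before the annotated start of these 5 genes are shown because type-A ARRs are read out through their promoters, the first 4 having the largest ratios and ARR8 a ratio below 1. They are given on the strand of the gene, 5′ to 3′, from TAIR10.1 (RefSeq), and hold no annotated exon. They are chr1:28133026-28133275 for ARR15, chr2:16969423-16969672 for ARR16, chr1:6579315-6579564 for ARR7, chr1:3444361-3444610 for ARR4 and chr2:17221590-17221839 for ARR8. Capitals mark AGATT, a core sequence bound by type-B ARRs, on either strand (AGATT or AATCT).
ARR15: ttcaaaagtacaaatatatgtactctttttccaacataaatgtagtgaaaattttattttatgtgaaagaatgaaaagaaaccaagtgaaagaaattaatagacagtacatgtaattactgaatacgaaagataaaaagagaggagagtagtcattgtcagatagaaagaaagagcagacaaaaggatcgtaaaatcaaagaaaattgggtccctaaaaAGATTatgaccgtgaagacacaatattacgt
ARR16: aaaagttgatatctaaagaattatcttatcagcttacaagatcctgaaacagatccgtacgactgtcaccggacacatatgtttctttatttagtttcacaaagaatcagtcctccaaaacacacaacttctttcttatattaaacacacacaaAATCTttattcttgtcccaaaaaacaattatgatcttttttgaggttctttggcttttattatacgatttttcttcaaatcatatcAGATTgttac
ARR7: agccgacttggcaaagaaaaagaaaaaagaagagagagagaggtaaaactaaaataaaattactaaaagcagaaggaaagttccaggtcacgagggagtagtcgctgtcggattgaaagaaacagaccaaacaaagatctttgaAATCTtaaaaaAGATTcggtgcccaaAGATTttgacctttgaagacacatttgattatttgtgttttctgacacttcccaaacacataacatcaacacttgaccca
ARR4: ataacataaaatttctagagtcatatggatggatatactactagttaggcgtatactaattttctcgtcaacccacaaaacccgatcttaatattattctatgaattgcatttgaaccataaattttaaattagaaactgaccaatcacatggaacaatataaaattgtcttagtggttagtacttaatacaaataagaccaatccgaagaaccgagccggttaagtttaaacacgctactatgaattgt
ARR8: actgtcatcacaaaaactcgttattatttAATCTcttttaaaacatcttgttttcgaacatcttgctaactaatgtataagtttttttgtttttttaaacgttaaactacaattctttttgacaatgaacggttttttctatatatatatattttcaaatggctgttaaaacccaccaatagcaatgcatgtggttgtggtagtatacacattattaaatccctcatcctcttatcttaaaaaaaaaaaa

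ARR7 had 3 matches, which began 106, 95 and 80 bases before the start. ARR16 had 2, ARR15 and ARR8 had 1 each, and ARR4 had none. ARR6, not shown, also had 3 matches, and ARR5 had none. Over the family, 7 of 10 windows held AGATT, against 63.7% of the 27438 windows of all protein-coding genes, so its presence was about as common as elsewhere. Of those 27438 windows, 9.26% held 3 or more matches, as the windows of ARR7 and ARR6 did. A further form, GGATT on either strand (GGATT or AATCC), stood in 6 of 10 member windows and 38% of all windows. ARR4, without AGATT, had 1 GGATT match, which began 49 bases before the start. Other letter forms of the type-B core were not searched. The G-box CACGTG, which light-regulated bZIP and bHLH factors bind, stood in none of the 10 and in 6.49% of all. No AGATT match can be a GGATT match as well. These are matches of letters in a short window and say nothing of binding.

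Of 56 other cytokinin genes in 7 pathway lists, 25 reached 10 RPKM and could be called, and of these 2 rose and 1 fell. Those shares are near the 8.69% called higher and 5.35% called lower among all genes of that level. The other 53 had no call, and the median log2 change of the 56 was 0.01. That median is held near 0 by 17 genes under 1 RPKM in both conditions. For those the added 1 keeps the log2 change small whatever the ratio. The ratio was above 1 for 29 of the 56 and below 1 for 22, and 5 had no read. The 3 receptors had no call. AHK2 had 20.9 RPKM in red light and 16.1 RPKM in darkness, AHK3 had 48.8 RPKM in red light and 50.0 RPKM in darkness, and AHK4 had 8.22 RPKM in red light and 11.6 RPKM in darkness. Of the 6 phosphotransfer genes, 4 reached 10 RPKM and none was called. Levels of AHP1, AHP2 and AHP3 were 58.8, 67.8 and 35.4 RPKM in red light and 43.6, 53.6 and 30.2 RPKM in darkness. AHP5 was at 26.6 RPKM in red light and 37.6 RPKM in darkness, whereas 2 members had few reads. AHP4 had 12 reads in red light and 4 in darkness, and AHP6, an inhibitor that lacks the phosphate-accepting histidine, had 16 in red light and 17 in darkness.

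Among 11 type-B ARRs, the activators of the type-A genes, 5 reached 10 RPKM and could be called. Of these, 1 rose and none fell, against 8.69% called higher and 5.35% called lower among all genes of that level. Of the 11, 5 had no more than 3 reads in either condition. ARR11 rose to 20.1 RPKM in red light, against 6.32 RPKM in darkness, a ratio of 3.17 (2.83 to 3.57). ARR1, the most abundant type-B gene in both conditions, had 40.7 RPKM in red light and 76.7 RPKM in darkness, a ratio of 0.531 (0.508 to 0.555) that did not reach the limit. ARR12 had 31.9 RPKM in red light and 23.2 RPKM in darkness, and ARR10 had 15.1 RPKM in red light and 12.3 RPKM in darkness. ARR1, ARR10 and ARR12 are known as the main activators of cytokinin response. All 11 type-B genes summed to 125 RPKM in red light and 135 RPKM in darkness.

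Of 19 cytokinin synthesis genes, 7 reached 10 RPKM. LOG1 was the 1 of these that rose. It had 44.0 RPKM in red light and 10.04 RPKM in darkness, a ratio of 4.38 (3.82 to 5.04). LOG enzymes release the active free base from cytokinin nucleotides. Of 9 genes of breakdown and conjugation, 3 reached 10 RPKM. CKX5, a cytokinin oxidase that destroys the hormone, was the 1 of these that fell. It fell to 4.76 RPKM in red light, against 28.1 RPKM in darkness, 5.90-fold (5.18 to 6.75). Of the 6 cytokinin response factors (CRF), 3 reached 10 RPKM and none was called. The 2 type-C ARRs had no more than 3 reads in either condition and could not be called. Hormone levels are not part of these data.

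**Figure D4:**
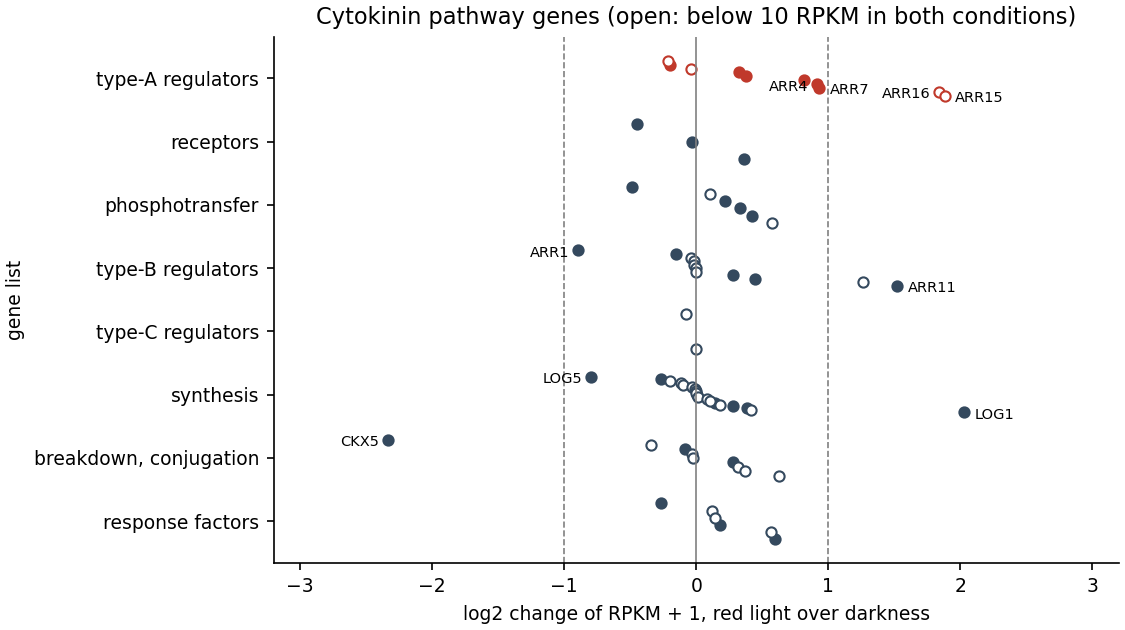
Log2 change of RPKM + 1, red light over darkness, for each gene of the type-A family (red) and of 7 other cytokinin lists (dark blue), with open points below 10 RPKM in both conditions. Outside the family, ARR11 and LOG1 lie beyond the right dashed 2-fold line and CKX5 beyond the left one among filled points.

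In a list of 6 genes outside the family that cytokinin is known to induce, all 6 had a ratio above 1. The list does not hold every such gene and was chosen with earlier results of these data known. The count is therefore no test of a cytokinin response. Among all genes of at least 10 RPKM, a level that only 4 of the 6 reached, 41.2% had a ratio above 1. The counting interval included 1 for LBD3 (0.785 to 19.1) and CRF5 (0.984 to 1.34). Of the 4 that reached 10 RPKM, 1 was called, against 8.69% of genes. That gene was CGA1, a GATA factor of chloroplast development, at 28.6 RPKM in red light and 0.574 RPKM in darkness. Light itself differs between the conditions, and the part of cytokinin in the ratio of CGA1 was not tested. CKX4 had 45 reads in red light and 28 reads in darkness, LBD3 had 8 in red light and 3 in darkness, and CYP735A2, CRF2 and CRF5 had ratios of 1.35, 1.59 and 1.15. CKX4, CYP735A2, CRF2 and CRF5 also stand in the pathway lists above. There, 5 of the 6 cytokinin response factors had a ratio above 1, and CRF6 had one of 0.826 (0.748 to 0.911).

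Markers of the organs of a seedling were counted beside the family, since type-A ARRs are expressed mainly in meristems and vascular tissue. Of 14 root markers, 5 reached 10 RPKM and none was called, and the summed level of the 14 was 416 RPKM in red light and 458 RPKM in darkness. CASP1 alone had 225 RPKM of that sum in red light and 258 RPKM in darkness. The ratio was above 1 for 7 of the 14 and below 1 for 7. Of 7 vascular markers, 6 reached 10 RPKM and none was called, at 213 RPKM in red light and 219 RPKM in darkness in sum. Of the 7 shoot meristem and boundary markers, KNAT1 alone reached 10 RPKM, and it was not called. The 7 summed to 51.8 RPKM in red light and 34.6 RPKM in darkness, with KNAT1 at 39.9 RPKM in red light and 23.1 RPKM in darkness. WUS had 0 reads in red light and 2 reads in darkness. The part of these markers in the type-A ratios was not tested. Of 6 genes known to mark growth in light or darkness, ELIP1, CHS and HYH rose and PORA, PHYA and PIL1 fell.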

How the data were processed

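RNA-seq of 4 seedling samples, 2 in red light and 2 in darkness, was deposited as 1 read column and 1 RPKM column per condition. The submitters' processing notes name TAIR10 as the genome build. Aligner, counter and use of strand: not given in the sources used here. Estimated counts, as deposited, were whole, with 0.5 in place of no read (4164 genes in red light, 4059 in darkness), set here to 0. The RPKM values deposited by the authors follow from those reads, their sum and the coding length of each gene model. A floor of 3 reads equals 0.115 to 0.194 RPKM in red light and 0.0936 to 0.158 RPKM in darkness for the members. Without molecular identifiers a read is not an independent molecule, so floors and intervals hold counting error alone.

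The planned edgeR test needs a column per sample and could not be used. Its stated fallback was a 2-fold difference on RPKM + 1, called only where 1 condition or both reached 10 RPKM. The added 1 makes log2 changes understate low genes, whereas ratios are of RPKM alone. Ratio intervals are Clopper-Pearson intervals of the read share, level order used the same interval on reads per length, and differences of ratios the exact conditional odds ratio. Named genes were all members, the receptors, AHP1 to AHP6, ARR1, ARR10, ARR12 and up to 3 called genes of each pathway list with the largest change. Other named genes were chosen after their values were seen. Genes were not ranked by likeness to the family, because 2 columns give 1 ratio per gene. The members and lists were chosen with earlier results of these data known.

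Names, coordinates and sequences came from RefSeq TAIR10.1, which matched all 10 members and 26719 of the 27416 loci. Alternatives used edgeR 4.0.16 and DESeq2 1.42.0 scaling factors (R 4.3.3). Other steps used Biopython 1.88, scipy 1.17.1, pandas 2.3.3, numpy 2.4.6 and matplotlib 3.10.9 in Python 3.11.15.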

Additional observations from a re-analysis of the deposited data

How the results depend on the processing

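The count of type-A members called higher, 0 by the stated rule, became 1 with a minimum of 5 RPKM (ARR16), 2 with a minimum of 1 RPKM or with none (ARR15 and ARR16), and 1 with TMM scaling (ARR7). It stayed at 0 with an added constant of 0.1, a 4-fold limit, the whole counting interval beyond 2-fold, and DESeq2, upper-quartile or organelle-free scaling. The count called lower was 0 under all of these. LOG1 and CKX5 were called under all of these, and ARR11 under all but the 4-fold limit. ARR14 was called higher only with a minimum of 1 RPKM or with none. The ratio of the family's summed reads, 1.56, was 1.63 with TMM or DESeq2 factors and 1.34 without ARR4. The median ratio over members, added after the data were seen, was 1.55. Transcript length in place of coding length moved the position of 4 members in red light and 4 in darkness. No paired analysis was possible because each condition has 1 column, and leaving out a replicate was not run for the same reason. Depth limits ARR17 and, in darkness, ARR15 most.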

Other observations

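Further genes tied to cytokinin response were looked up after the values above had been seen. The 4 F-box proteins KMD1 to KMD4 are known to target type-B ARRs for degradation. All 4 reached 10 RPKM and KMD2 alone was called, where 5.35% of all genes of that level were called lower. KMD2 fell to 47.1 RPKM in red light, against 139 RPKM in darkness, 2.95-fold (2.80 to 3.12). KMD1 had 196 RPKM in red light and 380 RPKM in darkness, KMD4 had 147 RPKM in red light and 230.4 RPKM in darkness, and KMD3 had 108 RPKM in red light and 107 RPKM in darkness, none of them called. The ratio of their summed reads, red light over darkness, was 0.593 (0.582 to 0.603).

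The 3 D-type cyclins of the CYCD3 group, of which CYCD3;1 is a known cytokinin target in cell division, reached 10 RPKM and had no call. Of all genes of that level, 8.69% were called higher and 5.35% lower. CYCD3;1 had 15.7 RPKM in red light and 11.5 RPKM in darkness, and CYCD3;2 had 95.2 RPKM in red light and 55.4 RPKM in darkness, a ratio of 1.72 (1.63 to 1.81). CYCD3;3 had 17.6 RPKM in both conditions, a ratio of 0.999 (0.898 to 1.11). Of 5 cytokinin transport genes, 4 reached 10 RPKM and none was called. A ratio above 1 was found for 1 of the 5 and for 41.2% of all genes of at least 10 RPKM. ABCG14, which loads root-made cytokinin for transport to the shoot, had 63.9 RPKM in red light and 77.0 RPKM in darkness.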
